A study of Mus musculus with 8 samples.

Results

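Tcf15, the E proteins and the Id inhibitors were read in 8 clones of mouse induced pluripotent stem (iPS) cells. The set holds 8 of the 18193 genes on the array with a probe set of their own: the basic helix-loop-helix (bHLH) factor Tcf15, the E-protein genes Tcf3, Tcf4 and Tcf12, and the inhibitor genes Id1, Id2, Id3 and Id4. Every probe set annotated to exactly one of these symbols was taken, which gave 23 of 34945 single-gene probe sets: 1 for Tcf15, 14 for the E proteins and 8 for the Id genes. Tcf15 was selected on its higher signal with ascorbic acid on these same arrays, so that difference is given as a description without a test. The other 7 genes were taken for their known relation to Tcf15. The Entrez identifiers of the annotation matched those of RefSeq for all 8 genes, so that Tcf3 here is E2A (Entrez 21423) and Tcf4 is E2-2 (Entrez 21413), not the Wnt effectors Tcf7l1 and Tcf7l2 that once shared these names.

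bHLH factors bind DNA as dimers. Tcf15, also known as paraxis, pairs with an E protein and binds E-box sequences. Id proteins keep the helix-loop-helix but lack the basic region that contacts DNA, so an E protein held by an Id protein cannot serve as a partner. BMP signalling through Smad factors induces Id genes in pluripotent cells, and FGF signalling promotes the transition out of the naive state. Tcf15 is best known from the paraxial mesoderm and somites, and it is also made in a part of pluripotent cultures, where it is tied to priming for differentiation.

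All 8 clones were derived from fibroblasts of Col-OKSM mouse embryos, in which doxycycline switches on Oct4, Sox2, Klf4 and c-Myc. Of these, 4 clones arose in medium with ascorbic acid (vitamin C) and 4 in medium without it. Both groups had serum, LIF and doxycycline and grew on irradiated feeder fibroblasts that were reduced by preplating before RNA extraction. Each clone was hybridised to 1 Affymetrix mouse 430_2 array, and since the labels are silent on whether the clones trace to different embryos, p-values cover only the variation among these 8 clones.

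The arrays were alike: median signals were 134 to 156, and log2 values of any 2 arrays correlated at 0.979 to 0.985. Pluripotency markers were bright in both groups. Pou5f1 (Oct4) read 10295 ± 948 with and 11283 ± 292 without ascorbic acid, Nanog 8948 ± 891 and 9709 ± 294, and Sox2 14333 ± 529 and 15002 ± 335 (mean ± SD over 4 clones a group, as for all such values). Doxycycline also switches on Oct4 and Sox2 in these cells, and the part of that source in the Pou5f1 and Sox2 values was not tested. Part of the fibroblast and feeder markers also gave signals: 19 of 24 listed genes were bright enough to be tested. The others, among them Lum, Dcn and Fbn1, had no probe set above the brightness limit given below. Averaged over the 19 genes, log2 levels ran from 10.42 to 10.71 in clones derived with ascorbic acid and from 10.53 to 10.83 in the other clones. Only genes above the limit enter this average, which raises it by selection. Of these 19 genes 17 were lower with ascorbic acid, with a median log2 difference of -0.19, and 0 passed the test described below. E proteins and Id genes are also expressed in fibroblasts, and the part of feeder RNA in the values below was not tested. In such bulk RNA, fewer cells making a transcript and less transcript per cell cannot be told apart.

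The reference sequences upstream of Id2, Id3 and Id4 are shown, those of the Id genes in the table used: Id2 was the one Id gene whose groups did not overlap, and Id3 and Id4 stand for comparison. Each is the 250 bases before the annotated start, 5′ to 3′, from RefSeq (GRCm38.p6). Capitals mark the E-box CANNTG, the kind of site that E-protein dimers bind, and GGCGCC, a GC-rich element to which BMP-activated Smad factors bind. Both motifs read the same on both strands, apart from the 2 free bases of the E-box, and no 2 matches overlapped. 
Id2, chr12:25096093-25096342, minus strand: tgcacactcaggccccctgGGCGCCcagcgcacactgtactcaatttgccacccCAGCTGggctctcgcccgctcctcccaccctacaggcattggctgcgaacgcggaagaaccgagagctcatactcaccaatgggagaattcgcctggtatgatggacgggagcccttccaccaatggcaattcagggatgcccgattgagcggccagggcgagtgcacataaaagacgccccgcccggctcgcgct
Id3, chr4:136143572-136143821, plus strand: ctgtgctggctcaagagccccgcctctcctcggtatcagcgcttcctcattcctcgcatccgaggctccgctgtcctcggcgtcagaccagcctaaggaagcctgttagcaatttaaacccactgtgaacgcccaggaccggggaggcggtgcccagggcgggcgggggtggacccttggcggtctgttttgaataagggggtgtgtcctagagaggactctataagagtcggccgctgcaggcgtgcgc
Id4, chr13:48260866-48261115, plus strand: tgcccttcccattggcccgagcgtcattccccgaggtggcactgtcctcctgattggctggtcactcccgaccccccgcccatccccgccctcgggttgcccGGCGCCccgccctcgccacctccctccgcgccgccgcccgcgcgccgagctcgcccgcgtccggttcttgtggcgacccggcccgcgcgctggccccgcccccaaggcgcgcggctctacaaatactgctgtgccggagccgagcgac
The Id2 sequence held 1 E-box, CAGCTG, 196 to 191 bases upstream of the start, and 1 GGCGCC at 231 to 226 bases. The Id4 sequence held 1 GGCGCC at 148 to 143 bases and no E-box, and the Id3 sequence held neither. Among 32851 upstream sequences of this length in the same table, 66.2% held CANNTG, 13% held CAGCTG and 9.59% held GGCGCC. These matches describe letters only. 

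Tcf15 was higher in every clone derived with ascorbic acid. Its probe set read 1713, 1529, 1674 and 1736 in clones 1 to 4 with ascorbic acid and 701, 577, 1104 and 694 in clones 1 to 4 without. The groups did not overlap: the lowest clone with ascorbic acid, at 1529, lay above the highest without, at 1104. The means were 1663 ± 92.9 with and 769 ± 230 without, a log2 difference of 1.14 ± 0.20 (SE), or 2.20-fold. All log2 values are log2(signal + 16), which understates changes of dim genes.

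The clones also differed in how much they varied. On the log2 scale the SD of Tcf15 was 0.082 with and 0.39 without ascorbic acid. The wider spread came from clone 3 without ascorbic acid, which lay 0.55 above its group's mean, and clone 2, which lay 0.36 below it. Without clone 3 of that group the log2 difference was 1.32, and without clone 2 it was 1.02. The difference in spread was not tested.

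**Figure D1:**
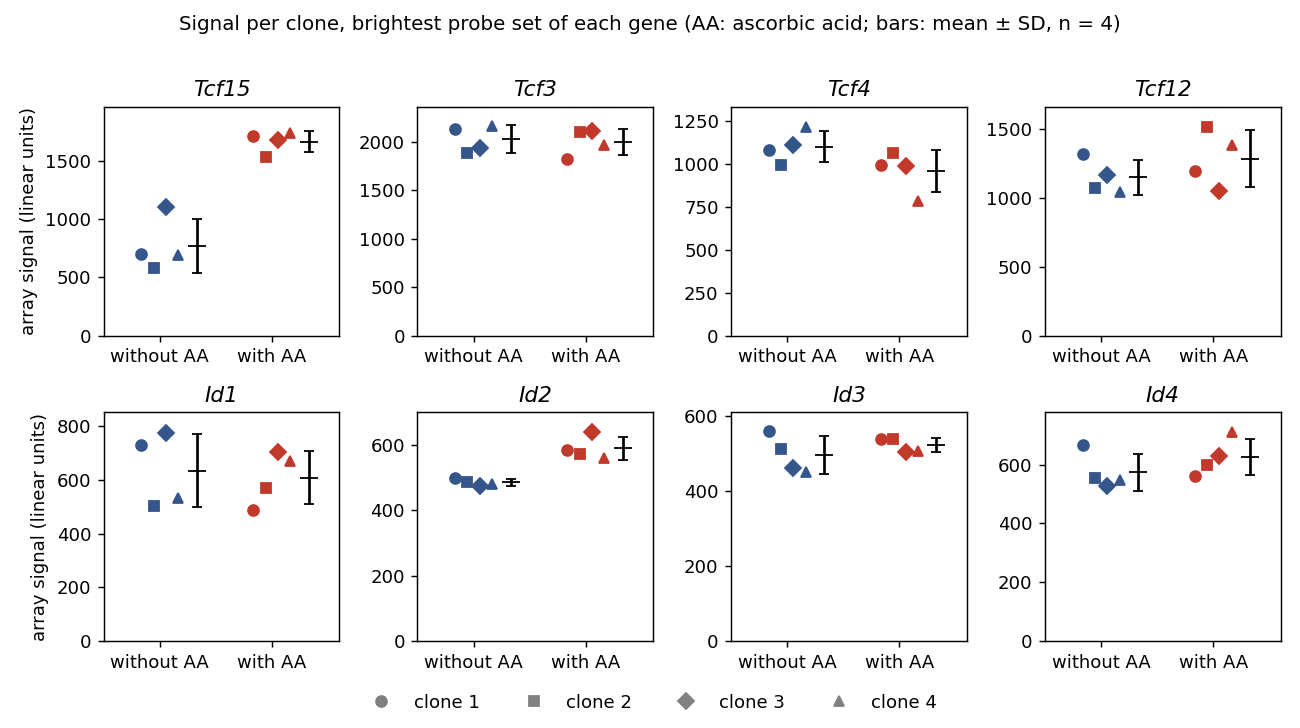
Array signal in linear units on the vertical axis for the brightest probe set of each of the 8 genes. Each clone is 1 point, with marker shape for the clone number, and bars give the mean ± SD of 4 clones. The labels do not pair same-numbered clones across groups. The groups are apart for Tcf15 (577 to 1104 without, 1529 to 1736 with ascorbic acid) and by a smaller distance for Id2, and they overlap for the other 6 genes.

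None of the E-protein and Id genes passed the test for a difference between the groups. The test was limma on 13126 genes, each read by its brightest probe set above a limit that left out the 40% dimmest probe sets, with Benjamini-Hochberg adjustment over all of them and a threshold of 0.05. Of the 23 probe sets 20 lay above that limit, and all 8 genes kept at least 1. Of the 7 genes other than Tcf15, 0 passed, where 0.0229% of all tested genes (3 of 13126) did. The 7 log2 differences had a median of 0.08, with 4 higher and 3 lower, against a median of -0.0042 over all tested genes. An unadjusted p under 0.05 was found for 1 of the 7, Id2, and for 5.84% of all genes. Groups that did not overlap were found for 1 of the 7, again Id2, and for 3.63% of all genes.

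Tcf3 encodes the E2A proteins E12 and E47. Its brightest probe set read 1823, 2107, 2114 and 1964 in clones 1 to 4 with ascorbic acid and 2133, 1881, 1940 and 2168 in clones 1 to 4 without. The groups overlapped over nearly their whole range, 1823 to 2114 with and 1881 to 2168 without. The log2 difference was -0.02 ± 0.071 (SE; limma, adjusted p = 0.978), with a 95% interval of -0.17 to 0.13. All 3 Tcf3 probe sets were lower with ascorbic acid, the dimmest by -0.30 ± 0.14 (SE), at 258 ± 43.2 with and 320 ± 37.1 without (limma over all probe sets, adjusted p = 0.882).

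Tcf12, which encodes the E protein HEB, read 1194, 1513, 1046 and 1384 in clones 1 to 4 with ascorbic acid and 1318, 1069, 1165 and 1041 in clones 1 to 4 without. Clones 2 and 4 with ascorbic acid were highest, while clone 3 of that group lay among the lowest. The log2 difference was 0.15 ± 0.14 (SE; limma, adjusted p = 0.877; 95% interval -0.091 to 0.39). The other probe set above the dim limit had a mean signal of 946 ± 74.9 with and 915 ± 97.6 without ascorbic acid, 0.05 apart in log2. The remaining 3 Tcf12 probe sets were below the limit, at signals of 15.3 to 121, and were not tested.

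Tcf4 was the E-protein gene with the largest difference on its brightest probe set, and its probe sets pointed in both directions. That probe set, of the _x_at class that can read several transcripts, read 990, 1064, 988 and 783 in clones 1 to 4 with ascorbic acid and 1082, 994, 1110 and 1211 in clones 1 to 4 without. Clone 4 with ascorbic acid was lowest and clone 4 without was highest, and the groups overlapped between 994 and 1064. The log2 difference was -0.20 ± 0.11 (SE; limma, adjusted p = 0.843; 95% interval -0.41 to 0.0060). Clone 4 with ascorbic acid was also lowest on the _a_at probe set of Tcf4, at 686 against 958 to 1049 in the other clones of its group. Without that clone the log2 difference of the brightest probe set was -0.11. Of the 6 Tcf4 probe sets 3 were higher and 3 lower, and 0 passed in limma over 27023 probe sets, where 13 probe sets (0.0481%) passed. A probe set of the unique _at class, close in signal, had means of 960 ± 38.8 with and 905 ± 50.9 without and pointed the other way (log2 difference 0.084 ± 0.050, SE). The remaining higher probe sets were almost level between the groups, at 710 ± 45.6 with and 710 ± 38.5 without, and at 103 ± 6.17 and 103 ± 31.4.

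**Figure D2:**
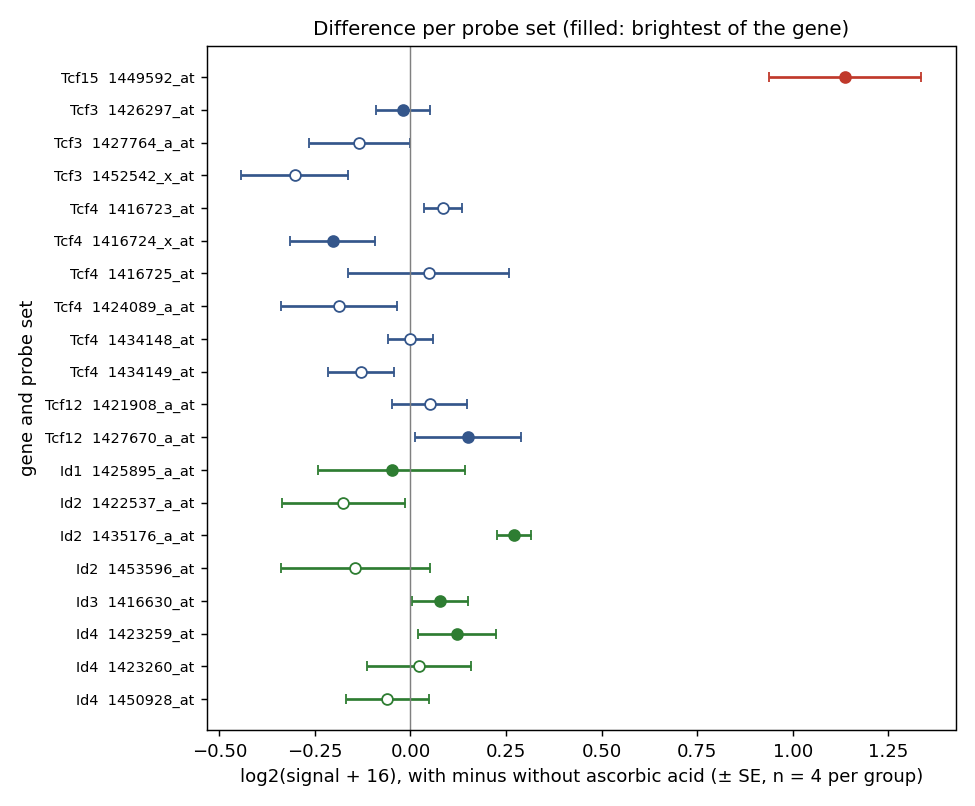
The horizontal axis gives the difference of the mean log2(signal + 16), with minus without ascorbic acid, and each row is 1 of the 20 probe sets above the dim limit, with bars for the SE from 4 clones a group. Tcf15 stands at 1.14, the other 19 lie between -0.30 and 0.27, and the probe sets of Tcf4, Id2 and Id4 fall on both sides of 0.

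Id2 was the Id gene whose groups stood apart, on one of its probe sets. The brightest read 584, 573, 639 and 560 in clones 1 to 4 with ascorbic acid and 499, 487, 473 and 481 in clones 1 to 4 without. Each clone with ascorbic acid lay above all 4 without, although the step from 499 to 560 was small. The means were 589 ± 34.8 and 485 ± 10.7, a log2 difference of 0.27 ± 0.043 (SE), or 1.21-fold, that did not pass (limma, adjusted p = 0.749; unadjusted p = 0.00499). Among all tested genes 2.06% had groups apart in this direction.

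The other 2 Id2 probe sets did not show this. They read 195 ± 46.8 with against 219 ± 17.2 without and 95.3 ± 26.1 against 105 ± 11.8. Their log2 differences were -0.18 ± 0.16 and -0.14 ± 0.19 (SE), and their groups overlapped. Averaging all 3 probe sets gave Id2 a log2 difference of -0.016.

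Id1, the Id gene most often used as a readout of BMP signalling, varied widely among clones of both groups. It read 488, 570, 705 and 669 in clones 1 to 4 with ascorbic acid and 728, 503, 773 and 532 in clones 1 to 4 without. In each group 2 clones lay at or below 570 and 2 at or above 669, so the spread within a group was far wider than the distance between the means. The log2 SD was 0.23 with and 0.31 without, and the log2 difference was -0.049 ± 0.19 (SE; limma, adjusted p = 0.975; 95% interval -0.38 to 0.28). Its sign turned without clone 1 with ascorbic acid (0.049) and without clone 1 (0.024) or clone 3 (0.052) of the other group.

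Id3, another direct target of BMP-activated Smad factors, read 540, 539, 506 and 509 in clones 1 to 4 with ascorbic acid and 560, 513, 462 and 452 in clones 1 to 4 without. The lowest 2 clones were both in the group without ascorbic acid, and so was the highest. The log2 difference was 0.08 ± 0.073 (SE; limma, adjusted p = 0.928; 95% interval -0.12 to 0.28).

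Id4, which is reported to act in part by binding other Id proteins, read 562, 600, 630 and 709 in clones 1 to 4 with ascorbic acid and 667, 553, 529 and 547 in clones 1 to 4 without. Clone 4 with ascorbic acid was highest, followed by clone 1 without, and the groups overlapped. The log2 difference was 0.12 ± 0.10 (SE; limma, adjusted p = 0.890; 95% interval -0.094 to 0.34). Its other 2 probe sets were at 0.022 ± 0.14 and -0.06 ± 0.11 (SE), with overlapping groups.

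The clone-wise relation of Tcf15 to its partners and inhibitors was read on deviations from the group means. Since Tcf15 was chosen for its group difference and its groups are apart, a correlation pooled over the 8 clones would mostly compare the groups, and none is tested. For 7 relations, an exact two-sided permutation test over all rearrangements of clones within groups was adjusted over the 7 by Benjamini-Hochberg. None passed.

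On the brightest probe sets the largest was a positive one with Id1. Pearson's r was 0.63 (exact permutation p = 0.106, adjusted p = 0.741) and Spearman's rho was 0.62 (exact permutation p = 0.156, adjusted p = 0.822), over 8 clones. Without ascorbic acid, clone 3 was highest and clone 2 lowest in both Tcf15 (1104 and 577) and Id1 (773 and 503). These 2 clones were also the farthest from the median in Tcf15, and without both r was 0.12, so the size of r rests mainly on them. Leaving out both also takes away most of the spread of Tcf15, which limits what this lower r can show. Without clone 3 alone r was 0.43, and without clone 2 alone it was 0.46. With ascorbic acid, clone 1 had the lowest Id1 (488) beside a Tcf15 signal of 1713, close to the group's highest (1736).

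For the other Id genes r was negative: -0.45 for Id3, -0.21 for Id2 and -0.18 for Id4, with exact permutation p-values of 0.535, 0.384 and 0.637 and an adjusted p of 0.899 for each. Spearman's rho was -0.36, -0.26 and -0.17, with exact permutation p-values of 0.587, 0.517 and 0.726. Without the same 2 clones r was -0.16 for Id3, -0.024 for Id2 and 0.063 for Id4. For the E proteins r was -0.17 for Tcf3, 0.053 for Tcf4 and 0.050 for Tcf12, and rho was -0.26, -0.26 and 0.048. The exact permutation p-values of r were 0.861, 0.885 and 0.899. Other probe sets gave other values: r with Tcf4 was 0.80 without suffixed probe sets (exact permutation, adjusted p = 0.148), and with probe set means r was -0.53 for Tcf3 and 0.64 for Id4 (exact permutation, adjusted p = 0.425 and 0.247). On the brightest probe sets without the 2 clones, r was -0.73 for Tcf3, -0.66 for Tcf4 and -0.36 for Tcf12. The clones with ascorbic acid spanned so narrow a range of Tcf15 (1529 to 1736) that these relations rest mainly on the group without it.

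**Figure D3:**
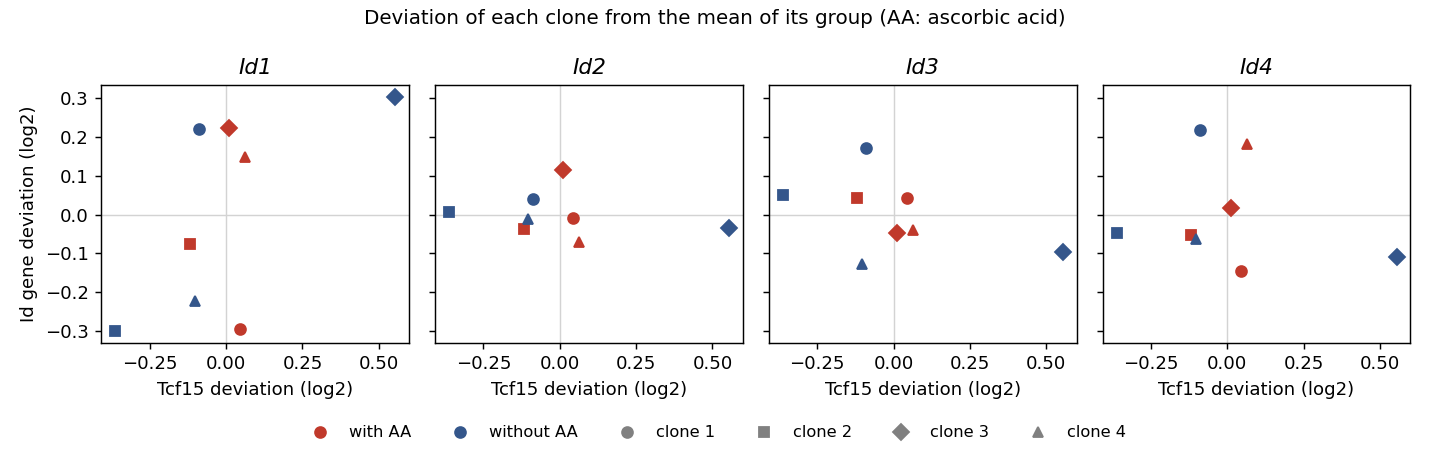
Each panel sets the deviation of a clone from its group's mean log2 level for Tcf15 (horizontal) against that for 1 Id gene (vertical), with 4 red points for clones with and 4 blue points for clones without ascorbic acid. The blue clones 2 and 3 lie far out along the Tcf15 axis, at -0.36 and 0.55, and the red clones stay between -0.12 and 0.063.

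Genes of the BMP pathway, which feeds Id expression, held no member that passed in limma. Among 13 tested ligand, receptor and Smad genes the counts were 9 higher and 4 lower, their median log2 difference was 0.05, and 0 were past the threshold in either direction. Bmp4, the ligand commonly added to sustain Id expression in pluripotent cells, read 221 ± 36.0 with and 286 ± 83.1 without (limma, adjusted p = 0.843), and the receptor gene Bmpr2 932 ± 112 and 854 ± 88.4 (adjusted p = 0.886). Of 10 tested BMP inhibitors and feedback genes 4 were higher and 6 lower (median -0.04), and 0 passed. The extracellular BMP modulator gene Twsg1 read 1392 ± 102 with and 1535 ± 62.0 without, and the antagonist gene Chrd 227 ± 12.2 and 256 ± 57.6.

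FGF-ERK genes were looked at because FGF signalling is known to support Tcf15 in pluripotent cells. The clones with ascorbic acid had higher signals in 9 of 15 tested genes and lower ones in 6, with a median log2 difference of 0.07, and 0 passed. An unadjusted limma p under 0.05 was found for 5 of the 15, against 5.84% of all genes; Dusp5, Fgfr1, Etv5 and Dusp6 were on the higher side and the ligand gene Fgf8 on the lower. The ERK phosphatase gene Dusp5 read 614 ± 33.6 with and 519 ± 41.4 without, with groups apart, and the receptor gene Fgfr1 read 2004 ± 232 and 1707 ± 123 (limma, adjusted p = 0.767 for both). Fgf8, which had the largest difference of the list, read 87.2 ± 44.2 with and 165 ± 71.5 without, with overlapping groups (log2 difference -0.81 ± 0.42, SE; limma, adjusted p = 0.822). Its mean with ascorbic acid lay below the dim limit of about 93.7, so it passed that filter through the group without.

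Among the other bHLH partners of E proteins, 9 of 20 tested genes were higher and 11 lower (median -0.05), and 0 passed. Twist1, a mesenchymal factor, read 213, 161, 212 and 217 in clones 1 to 4 with ascorbic acid and 163, 125, 137 and 114 in clones 1 to 4 without (log2 difference 0.52 ± 0.14, SE; limma, adjusted p = 0.749). Only clone 2 with ascorbic acid lay within the range of the other group. The oocyte factor gene Figla read 147 ± 10.9 and 112 ± 17.8, with groups apart (limma, adjusted p = 0.843). Of the Hes and Hey type repressors, which also carry a bHLH domain, 3 of 6 were higher and 3 lower, and 0 passed. Hes1, a Notch target, had a signal of 1294 ± 185 with and 1657 ± 276 without (limma, adjusted p = 0.759), and Bhlhe41 read 103 ± 19.2 and 135 ± 20.4 (adjusted p = 0.843).

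Paraxial mesoderm and somite genes, the programme in which Tcf15 acts in the embryo, were higher in 9 of 10 tested genes, against 48.6% of all tested genes. Most of these differences were smaller than their SE, such as 0.15 ± 0.24 (SE) for Foxc1 and 0.10 ± 0.17 for Snai2. The median log2 difference was 0.09, 0 passed and 1 had an unadjusted limma p under 0.05, against 5.84% of all genes. That gene was Pax9, which read 208 ± 72.7 with and 111 ± 44.0 without (log2 difference 0.82 ± 0.35, SE; adjusted p = 0.757), with overlapping groups. The Notch modifier gene Lfng read 191 ± 19.9 and 147 ± 54.1 (adjusted p = 0.843). The list had 21 genes, and the other 11 had no probe set above the dim limit, among them T, Meox1, Tbx18 and Aldh1a2.

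Primed and formative epiblast genes were higher in 12 of 18 tested genes and lower in 6 (median 0.05). Naive pluripotency genes were higher in 2 and lower in 15 of 17 (median -0.12). Of all tested genes 48.6% were higher, with a median of -0.0042. In neither list did a gene pass in limma, and an unadjusted p under 0.05 was found for 3 of 18 and 4 of 17 genes, against 5.84% of all genes. The naive list includes Pou5f1, Sox2 and Klf4, which doxycycline also switches on in these cells. The formative factor gene Pou3f1 read 512 ± 90.9 with and 381 ± 37.7 without, and the Nodal antagonist gene Lefty2 818 ± 13.5 and 1009 ± 203 (limma, adjusted p = 0.749 and 0.817). The groups of Pou3f1 overlapped and those of Lefty2 did not. The step between the Lefty2 groups was very small, from 836 (highest with) to 837 (lowest without). The naive factor genes Tbx3 (1345 ± 93.9 with, 1639 ± 107 without) and Klf2 (5779 ± 572 with, 7130 ± 526 without) also had groups that did not overlap (limma, adjusted p = 0.616 and 0.698). Among all tested genes 1.57% had groups apart in this direction. Beside these lower values stand the fibroblast and feeder markers, lower in 17 of 19 genes with an unadjusted p under 0.05 in 5, such as Postn (317 ± 33.9 with, 416 ± 22.8 without) and Col5a1 (1514 ± 190 with, 1779 ± 122 without), and their part was not tested.

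**Figure D4:**
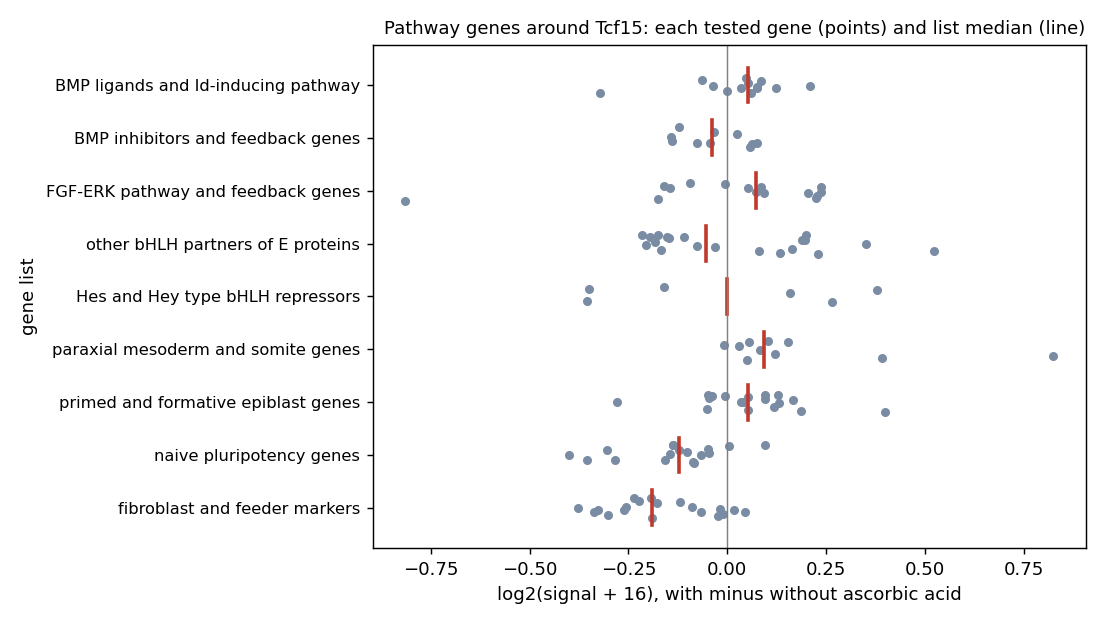
The horizontal axis gives the log2(signal + 16) difference, with minus without ascorbic acid, for each tested gene of 9 lists (points, spread vertically for sight), with a red line at each list's median. Medians lie between -0.19 for fibroblast and feeder markers and 0.09 for paraxial mesoderm and somite genes, and 0 genes of these lists passed.

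Tcf15 and Id1 lie on the same chromosome, 2, with 22 protein-coding genes between them in RefSeq (GRCm38.p6 gene order). Of these 9 were tested, 5 higher and 4 lower with ascorbic acid, with a median log2 difference of 0.024 and 0 past the threshold. The 5 nearest protein-coding genes on each side of Tcf15 gave 7 tested genes, 4 higher and 3 lower, and the groups overlapped in all 7. The adjacent tested genes were Srxn1, which encodes sulfiredoxin, at 430 ± 57.6 with and 374 ± 18.2 without, and Csnk2a1, a casein kinase subunit gene, at 2609 ± 281 and 2560 ± 214.

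Genes whose clone pattern was most like that of Tcf15 were taken from all tested genes as a description. Since the groups of Tcf15 are apart by its selection, the measure over all 8 clones mostly compares the groups. Over the 8 clones the 5 highest Pearson correlations were those of Endog (0.96), Insm1 (0.95), Fundc2 (0.95), Fam135a (0.95) and Rian (0.95). Each has groups apart, which this measure favours. Insm1, a zinc finger factor gene, read 521 ± 54.9 with and 337 ± 77.4 without, and Rian, an imprinted noncoding RNA, 2319 ± 413 and 364 ± 144. By deviations from the group means the 5 highest were Ttc7 (0.98), Slc26a4 (0.98), Gm10804 (0.98), Otub2 (0.97) and Kansl1 (0.97), all with a high value in clone 3 without ascorbic acid. Of the members Id1 was highest in this order, at number 727 of 13125.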

How the data were processed

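RNA of 8 clones was read on 1 array each. The authors deposited 1 linear signal intensity for each probe set and array. GCOS, software for Affymetrix scanners, stands in the submitters' processing notes, and the version and algorithm are not given in the sources used. All arrays have a mean of 500 once 2% is trimmed from both ends, so they were scaled before deposit.

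Of 45101 probe sets, 64 controls were left out; 34945 have 1 gene symbol, 932 several and 9160 none. Signals were transformed as log2(signal + 16) with the deposited scaling. The 40% dimmest probe sets by mean (signal about 93.7) were left out, and the brightest stood for each of 13126 genes. Groups were compared with limma 3.58.1 in R 4.3.3 (lmFit, eBayes with trend), two-sided, with Benjamini-Hochberg adjustment. The scripts were tested on simulated data. Drawings were made with matplotlib 3.10.9.

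Members and lists were chosen with earlier results of these data known. Named are all members, per list the genes past the threshold or else the 2 with the smallest p, the 5 genes most like Tcf15 by each measure, and Pou5f1, Nanog and Sox2; other genes were named after their values were seen. The lists are 9 of pathway or feeder genes and 1 of pluripotency markers (11 genes: 3 higher, 8 lower, 0 called, with Pou5f1 and Dppa5a of smallest p). Upstream sequences were matched for 5 of 8 members (Tcf3, Tcf12, Id2, Id3 and Id4; not Tcf15, Tcf4 and Id1). The number of arrays limits the precision.

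Alternatives were other scalings, pseudocounts and filters, averaged probe sets, leaving out suffixed probe sets, other eBayes settings, the clone number as a block, and leaving out each clone. The labels do not say whether same-numbered clones of the groups belong together. Deviations of same-numbered clones correlated at -0.17 to 0.012, which cannot show whether they share an origin or a day of handling.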

Additional observations from a re-analysis of the deposited data

Results flagged for a closer look

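Single clones stood far from the other 3 of their group in 2 of 110 groups of 4 clones (1.82%), where chance gives about 1 in 20. Tcf4 read 653 in clone 2 without ascorbic acid on 1 of its _at probe sets, against 724 to 736 in the others. For Twist1 the clone was number 2 with ascorbic acid, whose signal was 161 beside 212 to 217 in its group.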

How the results depend on the processing

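The log2 difference of Tcf15 was positive under all 19 alternatives (1.02 to 1.32, both ends from leaving out a clone), and 0 of the E-protein and Id genes tested passed under these; without suffixed probe sets only 5 of the 7 were tested, not Tcf12 and Id1. Over all genes, 3 passed, and 1 did without the trend or with robust estimation; leaving out a clone gave 2 to 4. Over all probe sets, 13 passed, and 8 did without the trend or without suffixed probe sets; leaving out a clone gave 11 to 15. With the replicate block, 3 genes and 11 probe sets passed. Signs turned for Tcf3 under median centring (0.013), for Id2 with the mean of its probe sets (-0.016) and without suffixed ones (-0.14), for Tcf4 without suffixed ones (0.084), and for the r of Tcf15 and Id4 with probe set means (0.64, not past the threshold). Leaving out single clones gave Tcf3 differences of -0.056 to 0.024 and Id1 differences of -0.15 to 0.052. The r of Tcf15 then ran from -0.68 to 0.30 with Tcf3, -0.28 to 0.25 with Tcf4, -0.11 to 0.21 with Tcf12, -0.51 to 0.069 with Id2 and -0.35 to 0.42 with Id4. With Id1 it stayed positive (0.43 to 0.77). Why these values moved was not tested beyond which clone or probe set was left out. With 4 clones a group, differences of the size seen in Id2 did not pass.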

Other observations

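Bmp4 was set against Id1 after the values were seen, and their relation did not pass. Without ascorbic acid Bmp4 read 322, 210, 386 and 226 in clones 1 to 4, beside Id1 at 728, 503, 773 and 532, so that both genes had the same order of clones. With ascorbic acid Bmp4 read 184, 257, 245 and 196 beside Id1 at 488, 570, 705 and 669, where the order was shared only in part. On deviations from the group means over 8 clones Pearson's r was 0.81 (exact permutation p = 0.0642) and Spearman's rho 0.81 (exact permutation p = 0.0729). Adjusted over the 23 tested BMP pathway genes set against Id1, the p was 0.859 and 0.958, and 12 of the 23 had a positive r. Without the 2 clones farthest from the median in Id1, r was 0.66. Bmp4 and Tcf15 had an r of 0.66 (exact permutation p = 0.168, adjusted p = 0.674 over 8 members) that was -0.38 without clones 2 and 3 lacking ascorbic acid, so it rests on these 2 clones. Their rho was 0.43 (exact permutation p = 0.417).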
